A study of Mus musculus with 8 samples.

Results

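The genes described here carry the signal of IL-2 and of the related cytokines that share the gamma chain (γc) receptor subunit. They are the receptor chains Il2rb, Il4ra, Il21r and Il2rg, the kinase Jak3, the transcription factors Stat5a and Stat5b, and the feedback inhibitors Cish, Socs1 and Socs2. Members were taken as the rows of the count table that carry these 10 symbols. Of the 28239 rows, 9 matched and all 9 had enough reads to be tested. Il2rg, which encodes γc itself, was not analysed here.

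IL-2, IL-4, IL-7, IL-9, IL-15 and IL-21 each bind a receptor that pairs γc with a cytokine-specific chain. JAK1 sits on the specific chain and JAK3 on γc, and after ligand binding these kinases phosphorylate STAT proteins. IL-2 acts mainly through STAT5A and STAT5B, which enter the nucleus and switch on target genes. Among these are Cish and other genes of the SOCS family, whose products dampen the same receptors. In regulatory T-cells (Tregs) this pathway sustains FOXP3, the transcription factor that defines the lineage, and IL-2 is added to cultures that turn naïve CD4+ T-cells into Tregs.

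The study asked how loss of ALOX15, a lipoxygenase that makes lipid mediators, alters the transcripts of Tregs. Naïve CD4+ T-cells were isolated from the spleens of adult C57BL/6 wild-type (WT) mice and of Alox15-/- mice on the C57BL/6 background, mice of both sexes being used in the study. The cells of both groups were cultured with IL-2, TGF-β and beads that engage CD3 and CD28, and RNA was taken on day 2. There are 4 libraries labelled Alox15-/- and 4 labelled WT, and the deficiency is carried by the whole animal rather than by T-cells alone. The paper names Charles River as supplier of its C57BL/6 mice and The Jackson Laboratory as supplier of its Alox15-/- mice. Genotype and supplier therefore cannot be told apart in the group differences below, and the part of the supplier was not tested. MACE-seq, which counts tags from the 3′ ends of transcripts, gave raw counts per gene, expressed below as CPM, a gene's count relative to the scaled size of its library.

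Total counts were between 3723151 and 6952596 in the libraries labelled Alox15-/- and between 4810125 and 9538962 in those labelled WT. Alox15, the targeted gene, lies on chromosome 11 (70344152 to 70352031, minus strand, GRCm38). Its level was 5.28 ± 3.59 CPM (SD, n = 4) in the WT-labelled libraries against 66.8 ± 3.18 CPM in the libraries labelled Alox15-/-, a log2 difference of 3.65 (SE 0.299, edgeR adjusted p = 1.08e-05). The targeted transcript was thus higher in the libraries labelled as lacking it. A 3′ tag reports the end of a transcript, and the sources used here do not say which part of the gene was deleted, so this level does not check the labels. Foxp3 was at 71.4 to 113 CPM in the libraries labelled Alox15-/- and at 92.9 to 194 CPM in those labelled WT, with overlapping groups and a log2 difference of -0.42 (95% interval -0.85 to 0.01, edgeR adjusted p = 0.655). WT replicate 3, at 194 CPM, stood far above the rest of its group, and without it the difference of Foxp3 was -0.11 (unadjusted p = 0.426, edgeR adjusted p = 0.878). Of 18 alternative ways of processing the counts, described below, 1 called Foxp3 lower at an adjusted p under 0.05 and 17 did not call it. Each direction below is that of the libraries as labelled.

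Of 6 T-cell markers, which include Cd4, and 6 Treg markers, which include Foxp3, none passed the test by edgeR, and each was counted in every library. Summed Treg markers were between 1761 and 1914 CPM in the libraries labelled Alox15-/- and between 1803 and 2019 CPM in those labelled WT. Among these markers is Il2ra, the IL-2 receptor α chain, which alone was at 673 to 893 CPM across the libraries. The sum therefore does not measure how many cells were Tregs. Markers of several other cells were higher in the libraries labelled Alox15-/-. Of 6 erythroid markers 5 were tested and all 5 were higher, with sums of 902 to 3467 CPM against 32.8 to 122 CPM, and of 8 myeloid markers 5 were tested and 5 were higher, with sums of 43.2 to 322 CPM against 8.83 to 15.1 CPM. For mast cells and basophils 5 of 6 were higher (130 to 323 CPM against 56.6 to 79.7 CPM), for eosinophils 2 of 2 tested (19.2 to 68.8 CPM against 1.25 to 10.2 CPM), and for natural killer and γδ T-cells 6 of 7 tested (111 to 212 CPM against 54.5 to 71.0 CPM). Of these called markers, the WT libraries alone would have carried 4 erythroid, 1 myeloid, 2 mast cell and basophil, 0 eosinophil and 4 natural killer and γδ T-cell markers past the filter of 2 CPM in 4 libraries. The others entered the test through the group where they were high, so the counts are a description. Neither of the 2 CD8 markers passed by edgeR, with sums of 12.02 to 21.82 CPM against 21.3 to 31.6 CPM in WT, and summed T-cell markers were 1900.2 to 2182 CPM against 2089 to 2336 CPM. The markers Ncr1, Cd14, S100a9, Alas2, Siglecf and Ccr3 were at 0 in at least 1 library. In bulk RNA, fewer cells of a type and less RNA per cell cannot be told apart. Where these sums move with a gene below, their part in the result was not tested.

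Among the 9 members, 2 stood out by size relative to their error, both feedback inhibitors. Cish was lower and Socs1 was higher in the libraries labelled Alox15-/-, each at an unadjusted p under 0.05, and neither passed after adjustment over all 12700 genes tested. The receptor chains, Jak3, both Stat5 genes and Socs2 had overlapping libraries in the 2 groups. By edgeR's quasi-likelihood test with Benjamini-Hochberg adjustment 0 of 9 members were called, against 1.24% of all genes tested, and DESeq2 and limma-voom also called 0. At an unadjusted p under 0.05 there were 2 of 9 members, against 7.84% of all genes tested. Members were split between 4 with a positive and 5 with a negative log2 difference, the median was -0.08 (all genes tested, -0.0073), and the range was -0.32 to 0.29. The median size of the difference, whatever its sign, was 0.16 for the members and 0.13 for all genes tested.

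**Figure D1:**
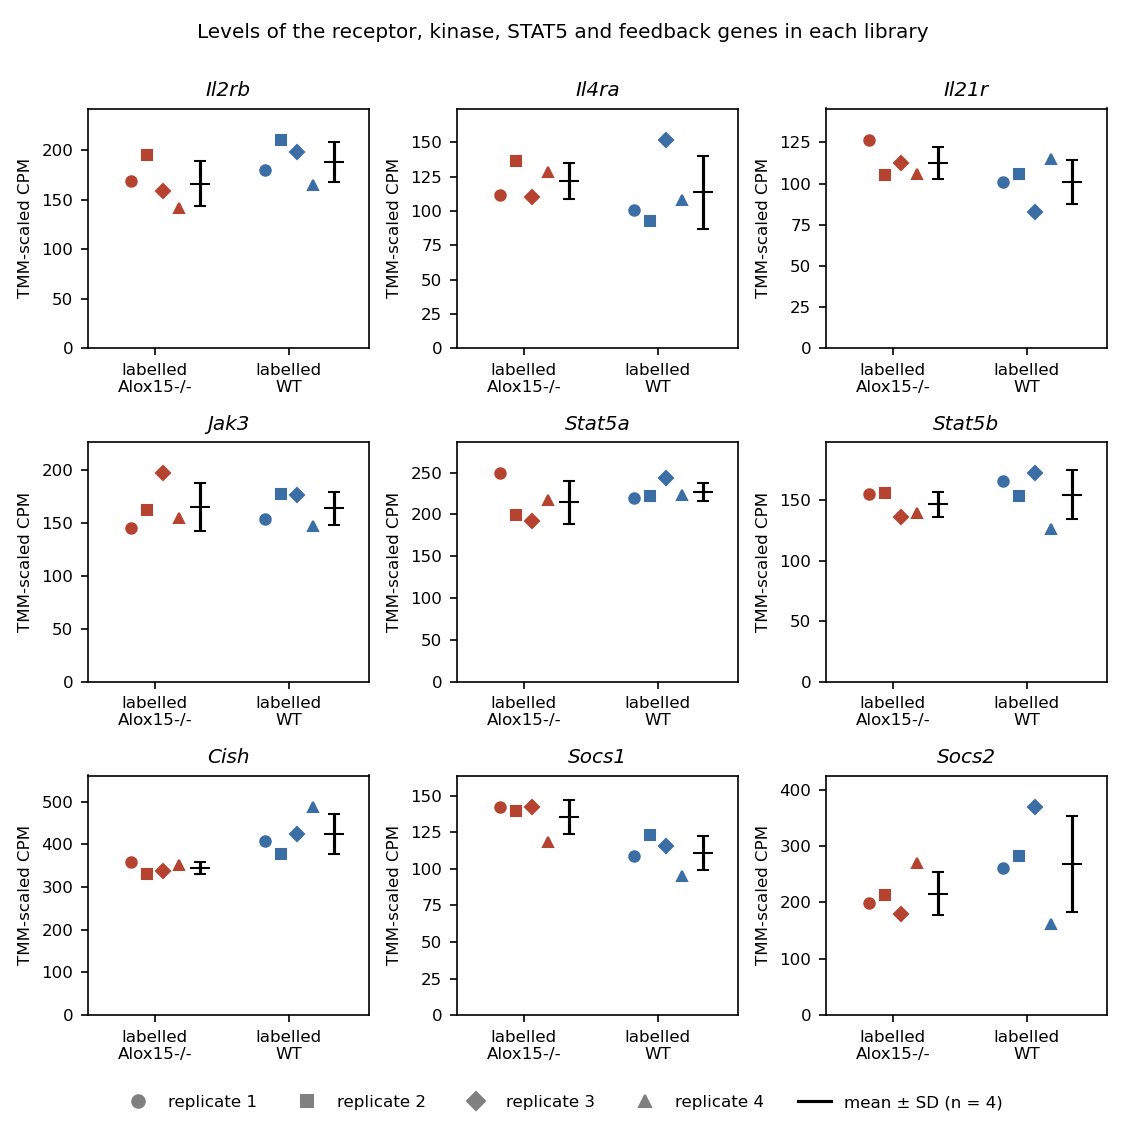
Level of each of the 9 members in each library, in CPM on a linear axis, with points for libraries and bars for the mean and SD of the 4 libraries labelled WT and the 4 labelled Alox15-/-. The 4 Cish points labelled Alox15-/- lie between 331 and 359 CPM, all below the lowest WT point at 378 CPM, while the points of the other members overlap between the groups.

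**Figure D2:**
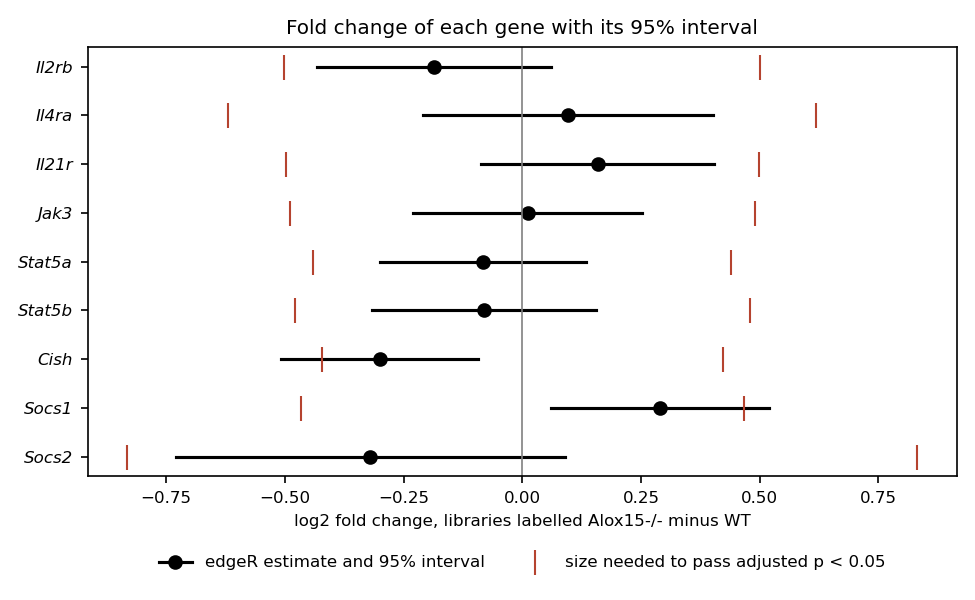
Log2 difference of each member, libraries labelled Alox15-/- minus WT, with its 95% interval, and red ticks at the size that would have passed the adjusted threshold at the gene's own error. Only the intervals of Cish and Socs1 leave out 0, and no point reaches its tick.

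The receptor chains come first. Il2rb encodes the β chain shared by the IL-2 and IL-15 receptors (chromosome 15, 78479256 to 78495271, minus strand, GRCm38). It was counted at 169, 195, 159 and 141 CPM in the libraries labelled Alox15-/- and at 180.0, 211, 198 and 165 CPM in those labelled WT. In each group replicate 2 was highest and replicate 4 lowest, and the groups overlapped. The means were 166 ± 22.6 and 188 ± 20.1 CPM (SD, n = 4), a log2 difference of -0.19 with a 95% interval of -0.43 to 0.06 (edgeR adjusted p = 0.766). Il2ra, the α chain that gives the IL-2 receptor its high affinity, is a wider-list gene that stands beside it. It had means of 764 ± 81.8 and 829 ± 55.1 CPM and a log2 difference of -0.12 (95% interval -0.33 to 0.10, edgeR adjusted p = 0.838), which was -0.061 without Alox15-/- replicate 4.

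Il4ra, the IL-4 receptor α chain, and Il21r, the specific chain for IL-21, are neighbours on the plus strand of chromosome 7, at 125552120 to 125579474 and 125603429 to 125633570, with 23954 bases between them. Il4ra was at 111, 137, 110.2 and 129 CPM in the libraries labelled Alox15-/- and at 101, 93.0, 152 and 108 CPM in those labelled WT. The highest value of all 8 was WT replicate 3, while the other three WT libraries lay below every library labelled Alox15-/-. The log2 difference was 0.10 (95% interval -0.21 to 0.40, edgeR adjusted p = 0.914). Without WT replicate 3 it was 0.28 (95% interval 0.04 to 0.52, unadjusted p = 0.0249, edgeR adjusted p = 0.451), and with each of the other libraries left out in turn it was as low as 0.012, without WT replicate 2.

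Il21r was at 127, 105, 112 and 106 CPM in the libraries labelled Alox15-/- and at 101, 106, 82.9 and 115 CPM in those labelled WT. Here WT replicate 3 was the lowest of all 8 libraries, the reverse of its place for Il4ra. The log2 difference of Il21r was 0.16 (95% interval -0.09 to 0.40, edgeR adjusted p = 0.805). With all 8 libraries, neither neighbour differed beyond the spread of its libraries.

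Jak3, the kinase bound to γc, had the smallest difference of the members. Its levels were 146, 163, 197 and 155 CPM in the libraries labelled Alox15-/- and 154, 177, 176 and 147 CPM in those labelled WT. The means were 165 ± 22.4 and 164 ± 15.4 CPM (SD, n = 4), a log2 difference of 0.01 with an interval of -0.23 to 0.25 (edgeR adjusted p = 0.991), and the sign turned when single libraries were left out. Jak3 (chromosome 8, 71676296 to 71690575, plus strand) shares 1362 bases with Insl3 on the same strand, and the last 500 bases of its transcript match Insl3, so reads of the 2 genes may not be separable. Jak1, which sits on the partner chain, had a log2 difference of -0.03 (edgeR adjusted p = 0.969) and was named after its value was seen.

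Stat5a and Stat5b encode near-identical transcription factors from neighbouring genes on chromosome 11, with 8626 bases between them. Stat5a lies on the plus strand (100859351 to 100885169) and Stat5b on the minus strand (100780731 to 100850724). Their 3′ ends, the last 500 bases of the transcripts, do not match each other at 90% identity over 100 bases. Stat5a overlaps the end of Stat3 on the other strand by 72 bases, and since the use of strand in the counting was not given in the sources used here, reads from that overlap cannot be told apart.

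Stat5a was at 249, 199, 192 and 217 CPM in the libraries labelled Alox15-/- and at 219.8, 222, 243 and 223 CPM in those labelled WT. The libraries labelled Alox15-/- took both the highest and the lowest places. The log2 difference was -0.08 (95% interval -0.30 to 0.13, edgeR adjusted p = 0.891).

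Stat5b was at 155, 156, 136 and 139 CPM in the libraries labelled Alox15-/- and at 166, 153, 172 and 127 CPM in those labelled WT. WT replicates 3 and 4 were its highest and lowest libraries, with the other group between them. The log2 difference of Stat5b was also -0.08 (95% interval -0.32 to 0.16, edgeR adjusted p = 0.912), and it was -0.019 without WT replicate 3 and -0.16 without WT replicate 4.

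The balance of the 2 Stat5 genes was compared as the share of Stat5a in their joint counts, a measure that library scaling does not touch. Stat5a took 61.6%, 56.1%, 58.6% and 61.0% in the libraries labelled Alox15-/- and 56.9%, 59.1%, 58.6% and 63.8% in those labelled WT. The mean shares were 59.3 ± 2.49% and 59.6 ± 2.96% (SD, n = 4). They differed by less than the spread of the libraries (two-sided exact permutation test, p = 0.886, with 0.0286 the smallest p that 4 against 4 libraries allow).

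Cish encodes CIS, an SH2-domain inhibitor of the IL-2 receptor and a classical STAT5 target gene (chromosome 9, 107296026 to 107302784, plus strand, GRCm38). STAT5 dimers bind the palindrome TTCNNNGAA, and the RefSeq promoter windows (250 bases before to 50 after a start, GRCm38.p6) were searched for it. Of the 9 members 7 had a window, and the stretch below is shown because Cish alone among them held the palindrome, with 2 copies right after the start that RefSeq gives it, which lies inside the gene as GENCODE M21 places it. The stretch is the plus strand of chr9:107296654-107296683, read 5′ to 3′, with the 2 copies in capitals.
Cish: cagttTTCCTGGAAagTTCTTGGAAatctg
The copies are separated by 2 bases. One copy or more was found in 8.3% of the 32851 promoter windows of the table and 2 or more in 0.457%. The palindrome reads the same on either strand. These matches describe the sequence and were not tested as binding sites in these cells.

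Cish was at 359, 331, 337 and 353 CPM in the libraries labelled Alox15-/- and at 408, 378, 425 and 489 CPM in those labelled WT. All 4 libraries labelled Alox15-/- lay below all 4 labelled WT. Cish was the only member whose groups did not overlap in either direction, against 5.25% of all genes tested (2.5% with the Alox15-/- group lower). The means were 345 ± 13.4 and 425 ± 46.5 CPM (SD, n = 4), and the log2 difference was -0.30 with a 95% interval of -0.51 to -0.09, which is 0.812-fold. The unadjusted p was 0.0076 and the adjusted p was 0.300 (edgeR). The libraries labelled Alox15-/- spread little, with a coefficient of variation of 3.88% against 10.9% in WT, where counting error alone gives 1.54% to 2.86%.

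Reads assigned to Cish may include some of Gm17041, which runs antisense to it over 1459 bases and matches the last 500 bases of its transcript. Gm17041 itself was counted at only 0.478 to 1.56 CPM. Leaving out the 2 libraries with the most erythroid and myeloid markers, Alox15-/- replicates 2 and 3, a choice made after seeing the data, left Cish at -0.25 (unadjusted p = 0.0782, edgeR adjusted p = 0.876). Cd4, the T-cell coreceptor, was likewise lower in all 4 libraries labelled Alox15-/-, at 209 to 296 CPM against 326 to 350 CPM, a log2 difference of -0.32 (edgeR adjusted p = 0.358), which was -0.19 without Alox15-/- replicates 2 and 3, and the part of the cell mixture in either value was not tested.

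Socs1 encodes an inhibitor that binds JAK kinases and blocks their activity (chromosome 16, 10782240 to 10785536, minus strand). It was at 142, 139.6, 143 and 118 CPM in the libraries labelled Alox15-/- and at 109, 123, 116 and 95.4 CPM in those labelled WT. Replicates 1 to 3 labelled Alox15-/- lay above every WT library, and replicate 4 lay within the WT range. The means were 136 ± 11.6 and 111 ± 11.8 CPM (SD, n = 4), and the log2 difference was 0.29 with a 95% interval of 0.06 to 0.52, or 1.22-fold. The unadjusted p was 0.0169 and the adjusted p was 0.458 (edgeR). Without Alox15-/- replicates 2 and 3 the difference of Socs1 was 0.24 (unadjusted p = 0.117, edgeR adjusted p = 0.897), and without WT replicate 4 it was 0.23 (unadjusted p = 0.0511, edgeR adjusted p = 0.598).

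Socs2, an inhibitor best known for limiting growth hormone signals through STAT5, varied most between libraries (chromosome 10, 95385362 to 95417180, minus strand). It was at 199, 213, 179 and 269.8 CPM in the libraries labelled Alox15-/- and at 261, 282, 369.5 and 161 CPM in those labelled WT. The WT libraries alone spanned 2.29-fold, from the lowest to the highest of all 8. Socs2 had the largest difference of the members by size, -0.32, and the widest interval, -0.73 to 0.09 (edgeR adjusted p = 0.750). Leaving out WT replicate 3 gave -0.12 and leaving out WT replicate 4 gave -0.49, with an adjusted p of 0.159 for the latter (edgeR).

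The members did not share an order of libraries. WT replicate 4 was the highest for Cish and the lowest for Socs1, Socs2 and Stat5b. WT replicate 3 was the highest for Il4ra, Socs2 and Stat5b and the lowest for Il21r. Summed over the 9 members, the libraries labelled Alox15-/- held 1659, 1638, 1566 and 1628 CPM, and those labelled WT held 1700, 1745, 1935 and 1630 CPM. At each member's own error, a log2 difference between 0.42 (Cish) and 0.83 (Socs2) would have been needed to pass. These sizes apply to the estimates of this edgeR fit and are not a limit on the true differences that could be detected.

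The wider pathway was followed in 43 further genes, of which 36 were tested. Only Gzmb passed by edgeR's quasi-likelihood test with adjustment, 1 gene higher and 0 lower, against 1.05% of all genes tested higher and 0.197% lower. Gzmb met the filter of 2 CPM in 4 libraries only through the libraries labelled Alox15-/-, every WT library being below it, so it could be called in that direction alone and the count of 1 is a description. At an unadjusted p under 0.05, 6 were higher and 1 was lower (4.46% and 3.38% of all genes tested). Of these 6, Gzmb and Gab2 would not have met that filter in the WT libraries alone, so this count is also a description. The groups did not overlap for 4 genes, each higher, which were Il9, Crlf2, Gzmb and Sos1, the last named after its values were seen (2.75% of all genes tested). The median log2 difference over the 36 genes was 0.03.

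**Figure D3:**
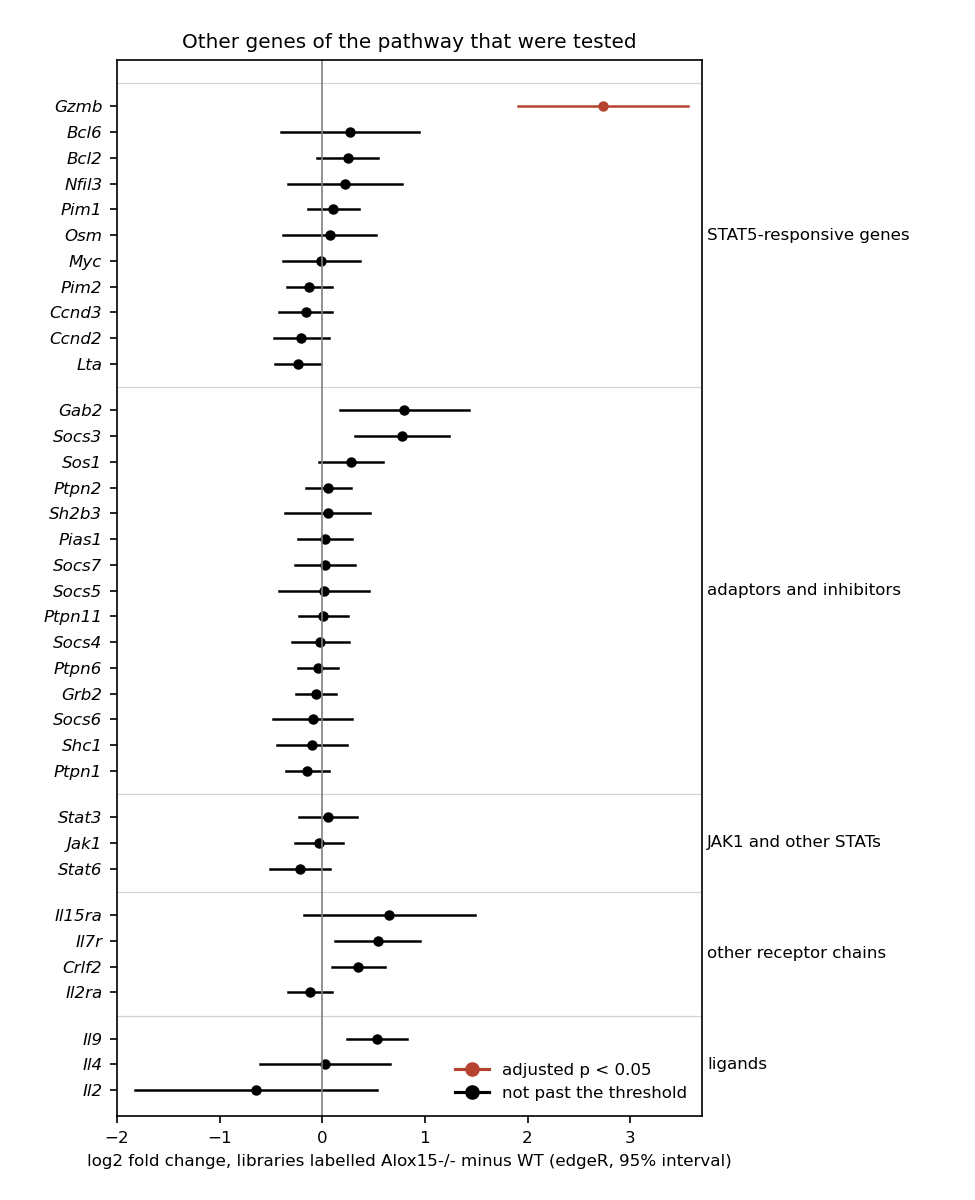
Log2 difference, libraries labelled Alox15-/- minus WT, of every tested gene of the wider pathway lists, grouped by role, with 95% intervals. Gzmb, at 2.74, is the gene past the adjusted threshold, while most others lie close to 0.

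Of the 8 ligands, 3 were tested, namely Il2, Il4 and Il9. The other five and the receptor genes Il9r and Il13ra1 did not exceed 3.78 CPM in any library. None of the 3 passed edgeR's quasi-likelihood test, and 1 had an unadjusted p under 0.05. Il9, a γc cytokine made by activated T-cells and mast cells, was at 145, 179.8, 225 and 159 CPM in the libraries labelled Alox15-/- and at 136, 127, 129 and 99.8 CPM in those labelled WT. All 4 former libraries lay above all 4 latter ones. The log2 difference of Il9 was 0.53 (95% interval 0.24 to 0.82, edgeR adjusted p = 0.101), and DESeq2 called it with an adjusted p of 0.0199. Summed mast cell and basophil markers were higher in the same libraries, as given above, and their part in this value was not tested. Without Alox15-/- replicates 2 and 3 the difference of Il9 was 0.32 (edgeR adjusted p = 0.791).

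Il2, the T-cell's own growth factor, was at 72.8, 33.5, 76.4 and 66.7 CPM in the libraries labelled Alox15-/- and at 42.9, 39.4, 31.7 and 287 CPM in those labelled WT. WT replicate 4, at 287 CPM, stood far above all the others and set the sign of the comparison. With it the log2 difference of Il2 was -0.65 (95% interval -1.83 to 0.53, edgeR adjusted p = 0.838), and without it the difference was 0.73 (unadjusted p = 0.00242, edgeR adjusted p = 0.135). With no filter on low counts and all 8 libraries, edgeR called Il2 lower, at -0.67 (adjusted p = 1.67e-05). The same library was the highest for Cish, and without it the log2 difference of Cish was -0.22 (unadjusted p = 0.0385, edgeR adjusted p = 0.544).

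Of the other receptor chains, 4 were tested, 0 passed by edgeR, DESeq2 or limma-voom, and 2 had an unadjusted p under 0.05. Il7r, the IL-7 receptor α chain of naïve and memory T-cells, was at 19.7, 20.8, 13.9 and 21.6 CPM in the libraries labelled Alox15-/- and at 10.3, 11.8, 17.4 and 12.1 CPM in those labelled WT. Apart from replicate 3 of each group, the former were higher. The log2 difference of Il7r was 0.54 (95% interval 0.13 to 0.96, edgeR adjusted p = 0.415). Crlf2, which pairs with Il7r in the receptor for TSLP, was at 54.4 ± 6.13 against 42.8 ± 4.64 CPM (SD, n = 4), with a log2 difference of 0.35 (95% interval 0.09 to 0.61, edgeR adjusted p = 0.361). Without Alox15-/- replicates 2 and 3 the difference of Crlf2 was 0.21 (unadjusted p = 0.175, edgeR adjusted p = 0.910).

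**Figure D4:**
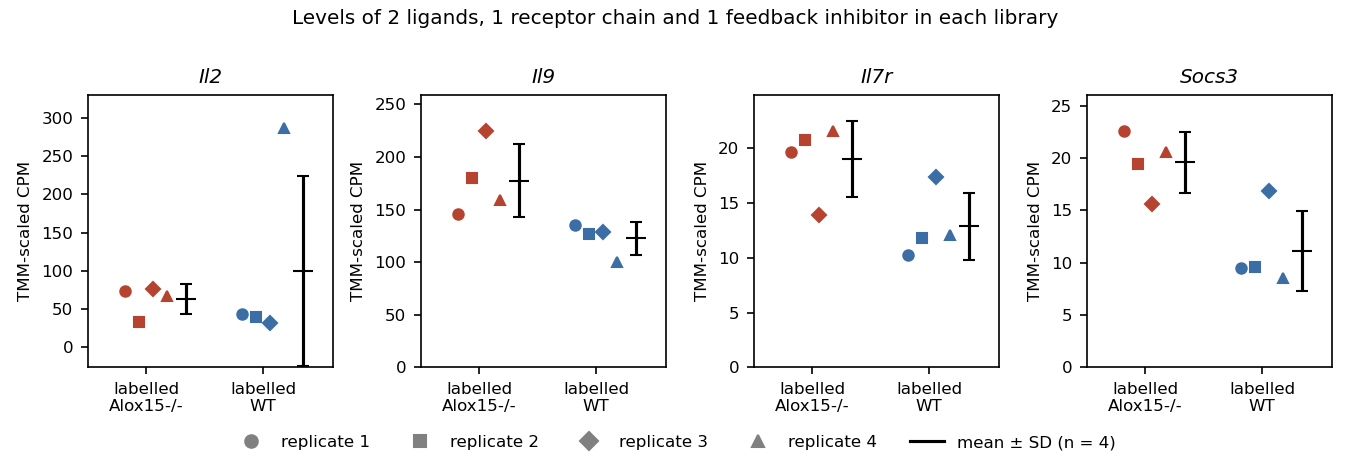
Levels of Il2, Il9, Il7r and Socs3 in each library, in CPM on a linear axis, with the mean and SD of the 4 libraries labelled WT and the 4 labelled Alox15-/-. One WT library stands at 287 CPM for Il2, and the WT library at 16.9 CPM for Socs3 is the one that also stands highest of its group for Il7r.

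Among the other kinase and STAT genes, 0 of 3 passed by any of these tools or had an unadjusted p under 0.05. Stat6, the main STAT of the IL-4 receptor, was at 139.8 ± 22.7 against 163 ± 27.6 CPM, a log2 difference of -0.21 (95% interval -0.51 to 0.08, edgeR adjusted p = 0.774), which was -0.089 without WT replicate 4 and -0.11 without Alox15-/- replicate 2. Stat3, which carries the IL-21 signal, had a log2 difference of 0.06 (95% interval -0.22 to 0.34, edgeR adjusted p = 0.948).

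Of the 15 adaptors and inhibitors, 0 passed edgeR's quasi-likelihood test and 2 had an unadjusted p under 0.05, both higher. Socs3, the inhibitor of receptors that signal through STAT3, was at 22.6, 19.4, 15.6 and 20.6 CPM in the libraries labelled Alox15-/- and at 9.51, 9.56, 16.9 and 8.56 CPM in those labelled WT. WT replicate 3 was the exception in a group otherwise below every library labelled Alox15-/-. The log2 difference of Socs3 was 0.78 (95% interval 0.32 to 1.23, edgeR adjusted p = 0.142), and it was called by DESeq2 (adjusted p = 0.0432) and without WT replicate 3 by edgeR (1.08, adjusted p = 0.0057). Gab2, a scaffold that joins receptors to PI3 kinase, was low at 4.56 ± 1.22 against 2.50 ± 0.658 CPM (log2 difference 0.80, edgeR adjusted p = 0.449). WT replicate 1 was at 1.87 CPM, so the WT libraries alone would not have carried Gab2 past the filter of 2 CPM in 4 libraries. Ptpn6, the phosphatase SHP-1, had a log2 difference of -0.04 (edgeR adjusted p = 0.944).

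Of 11 genes known to respond to STAT5, Gzmb alone was called, having entered the test only through the group where it was high, and 2 had an unadjusted p under 0.05. Gzmb, which encodes the cytotoxic protease granzyme B, was higher in the libraries labelled Alox15-/-, at 9.80 ± 5.10 CPM, than in the WT libraries, at 1.38 ± 0.263 CPM (SD, n = 4). The log2 difference was 2.74 (SE 0.388, edgeR adjusted p = 0.00106), and the libraries labelled Alox15-/- were at 10.6, 16.5, 7.71 and 4.44 CPM. In the same libraries 6 of 7 tested markers of natural killer and γδ T-cells, from a list of 9, were also higher, 4 of them among the 5 that the WT libraries alone would have carried past the filter. The part of such cells in the Gzmb level was not tested. Without any 1 of the libraries labelled Alox15-/- Gzmb no longer met the filter on low counts and was not tested.

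Among the other named genes of that list, Ccnd2, the cell-cycle gene cyclin D2, was at 913 ± 144 against 1050.5 ± 147 CPM, a log2 difference of -0.20 (95% interval -0.47 to 0.07, edgeR adjusted p = 0.766). Without Alox15-/- replicate 1 the difference of Ccnd2 was -0.31 (unadjusted p = 0.0240, edgeR adjusted p = 0.550). Lta, which encodes lymphotoxin α, was at 371 ± 29.3 against 437 ± 52.2 CPM, a log2 difference of -0.24 (95% interval -0.46 to -0.01, edgeR adjusted p = 0.605), and -0.16 without WT replicate 4. Over the 11 target genes the median log2 difference was 0.07, with 6 positive and 5 negative. The list was not divided by the direction of the response to STAT5, so this median does not measure STAT5 activity.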

How the data were processed

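Raw counts per gene symbol were deposited by the authors as 1 table, made by MACE-seq (the labels name a small-RNA kit) from trimmed reads. The submitters' processing notes name Bowtie, edgeR and GRCm38; the counting tool was not given in the sources used here. A gene was tested if 4 or more libraries held it at 2 CPM or more, which gave 12700 genes. Libraries were scaled by TMM and compared with edgeR 4.0.16 (glmQLFit and glmQLFTest, R 4.3.3), two-sided, with group as the only term and Benjamini-Hochberg adjustment over all tested genes at 0.05. The SE was the log2 fold change divided by the square root of F. The script was tested on simulated counts. Alternatives used DESeq2 1.42.0, limma-voom 3.58.1, other scalings and filters, a replicate term, and single libraries left out. Positions come from GENCODE M21, promoters from RefSeq, and 3′ matches from blastn 2.17.0. The members and lists were chosen with earlier results of these data known. Named from the lists were genes past the threshold, the 2 with the smallest p and the most abundant. The total counts, 3723151 to 9538962, and the median biological coefficient of variation, 14.2%, set the precision. The series' design gives 4 mice per genotype, for 4 libraries each, but transcripts of both sexes were counted in every library. Whether a library is 1 mouse was therefore not settled, and p-values judge a group difference against the spread between libraries. One marker list is not reported here.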

Additional observations from a re-analysis of the deposited data

Results flagged for a closer look

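Of the 52 groups of 4 libraries examined, 5 held a library whose gap to its nearest neighbour took an unusually large share of the group's range (Dixon's test at 95%), where chance gives about 1 in 20. For Stat5a it was WT replicate 3, the highest of its group at 243 CPM, with a gap of 0.856 of the range. For Socs1 it was Alox15-/- replicate 4, the lowest of its group at 118 CPM, with a gap of 0.874. For Il2 it was WT replicate 4, at 287 CPM, with a gap of 0.956. WT replicate 3 was the highest of its group for Socs3, at 16.9 CPM with a gap of 0.879, and for Foxp3, at 194 CPM with a gap of 0.844.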

How the results depend on the processing

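In all 18 alternatives 0 members were called, and 156 of 162 member values kept their sign. The smallest adjusted p was 0.133 (Socs2 with no filter). Cish ranged from -0.35 to -0.22 (adjusted p 0.170 to 0.876) and had an unadjusted p under 0.05 in 17 alternatives, while Socs1 ranged from 0.23 to 0.35 (adjusted p 0.324 to 0.897) and did so in 16. Il2rb ranged from -0.28 to -0.11 and Il21r from 0.08 to 0.23. Jak3 turned to -0.011 with no filter, to -0.12 without Alox15-/- replicates 2 and 3, and ranged from -0.080 to 0.068 with 1 library left out. Stat5a turned to 0.043 without those 2 libraries and was -0.16 to -0.027 with 1 library left out. Il2 was 0.030 by limma-voom and -0.95 to 0.73 with 1 library left out, Stat3 was -0.036 to 0.14, and the Stat5a share difference, -0.297 points, was -1.19 to 1.11 points. The called genes of the wider lists were 4 higher and 1 lower (Il2) with no filter, 3 higher by the likelihood-ratio test and 3 by DESeq2, 0 without the 2 libraries, and 0 to 2 higher and 0 lower with 1 library left out. With 1 library left out, Il2ra was -0.17 to -0.061, Ccnd2 -0.31 to -0.14, Lta -0.29 to -0.16, Il7r 0.45 to 0.74, Gab2 0.64 to 1.03, Ptpn6 -0.091 to -0.0086 and Foxp3 -0.53 to -0.11. Leaving out any library labelled Alox15-/- removed Gzmb from the tested genes. Over all genes, 388 were called with no filter and 60 without the 2 libraries, against 158. The cause was not tested.

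Same-numbered libraries correlated at -0.18 to 0.17, with 1 of 4 pairs over 0.1, and 1 of 4 numbers matched best both ways, so the numbers were not taken as pairs. With a replicate block 0 members, 1 gene of the wider lists and 146 of all genes were called. Cish was then at -0.30 (edgeR adjusted p = 0.493) and Socs1 at 0.29 (edgeR adjusted p = 0.456). The Stat5a share difference had p = 1 (exact sign-flip test), but with 4 pairs that test cannot reach a p under 0.05. A term for sex was not run, since the libraries could not be divided by sex.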

Other observations

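Xist, counted at 33.3 to 67.5 CPM, and the Y-linked Ddx3y, at 37.6 to 62.0 CPM, were both present in all 8 libraries.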
